A study of Mus musculus with 12 samples.

Results

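The genes described here are the solute carriers, the Slc families of membrane transporters, as they were read in mouse colon and stomach with and without the transcription factor Spdef. Members are all genes of the platform's gene table whose symbol begins with Slc and a digit, with Slc26a3, Slc41a2, Slc16a7 and Slc18a1 set aside. The table held 252 such genes and 248 after that exclusion, each represented by its probe set with the highest mean over the 12 arrays. A gene was kept where its level, log2(intensity + 16), reached 7 (an intensity of 112) in at least 2 arrays, which left 151 members of 43 families among 11807 genes, and 97 were not kept. Members were thus chosen by their measured levels, which are given as a description.

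Total RNA was taken from flash frozen stomach and colon of C57BL/6 mice aged 16 weeks. The 6 groups were Spdef KO, HET and WT colon and Spdef KO, HET and WT stomach, with 2 arrays each on the Affymetrix HT Mouse Genome 430 platform. The labels give no treatment, do not state the sex of the mice or how the Spdef allele was made, and do not say whether the 2 arrays of a group came from separate animals. The p-values therefore measure only the spread between these samples, which may be technical.

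Solute carriers move ions, nutrients, metals, vitamins and metabolites across the cell membrane or the membranes of mitochondria and other organelles. Many are secondary active transporters, which spend the sodium or proton gradient built by ATP-driven pumps, and others are exchangers or simple facilitators. In the gut, epithelial cells place different carriers on their luminal and basolateral sides, so that absorption and secretion have a direction; Spdef, an ETS-family transcription factor, is known for its part in goblet cell maturation in the intestine and mucous cells of the stomach. The rule also takes in Slc9a3r1 and Slc9a3r2, which encode scaffold proteins that bind sodium/proton exchangers and are not transporters themselves.

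The tissue labels were checked against marker lists. The summed level of 7 measured gastric surface mucous cell genes, as a mean per gene, was 5.81 to 6.32 on the colon arrays and 13.14 to 13.30 on the stomach arrays, and that of 9 parietal cell genes was 5.84 to 6.79 in colon and 10.87 to 11.33 in stomach. Goblet cell genes (9 of 11 measured) ran the other way, at 11.89 to 13.30 in colon and 7.91 to 8.83 in stomach. The Spdef probe set read 9.08 and 9.25 in KO colon, 10.27 and 9.81 in HET colon, and 10.97 and 8.74 in WT colon. In stomach it read 8.86 and 8.63 in KO, 9.06 and 8.94 in HET, and 9.19 and 8.96 in WT. The array labelled colon WT 2 thus had the lowest Spdef level of the 6 colon arrays, below both KO arrays. It also stood apart over the members, where its correlation with colon arrays averaged 0.681; each of the remaining 5 averaged 0.839 to 0.910 and stomach arrays among themselves 0.980 to 0.984. It is called the library labelled colon WT 2 where a result rests on it, and many results that it moves are given with and without it.

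Colon was compared with stomach over the 3 genotypes to see which carriers mark each tissue. Among the 151 members, 50 were higher and 43 lower in colon (limma, Benjamini-Hochberg adjusted over all 8452 genes tested, threshold 0.05), which is 61.6% of members. The same comparison called 48.3% of all genes tested, 21.3% as higher and 27.0% as lower, and 49.9% of the 7791 genes that reach the members' own level. The median difference was 0.03 over members and -0.05 over all genes. Keeping a member through 1 tissue alone favours a difference, so these counts support nothing: of the 23 at the level only in colon, 19 were higher there, and of the 16 at the level only in stomach, 11 were lower in colon. Over the 111 members at the level in both tissues, 31 were higher, 32 lower and 48 not past the threshold. The remaining member, Slc16a6, reached the level in 1 array of each tissue. The 6 colon and 6 stomach arrays did not overlap for 73 of the 151 members (48.3%), all of them called, against 29.8% of all genes tested. Of the 93 called members, 92 differed in the same direction within each genotype, the exception being Slc35c2, and 45 passed the threshold within each genotype too. In whole tissue, fewer cells of a type and less RNA per cell cannot be told apart.

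Without the library labelled colon WT 2, 56 members were higher and 51 lower in colon, against 51.9% of all 8403 genes then tested. Of the 93 calls, 90 were kept, 0 called members changed sign, and Slc22a18, Slc35a4 and Slc39a13 dropped below the threshold. A further 17 members passed it.

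**Figure D1:**
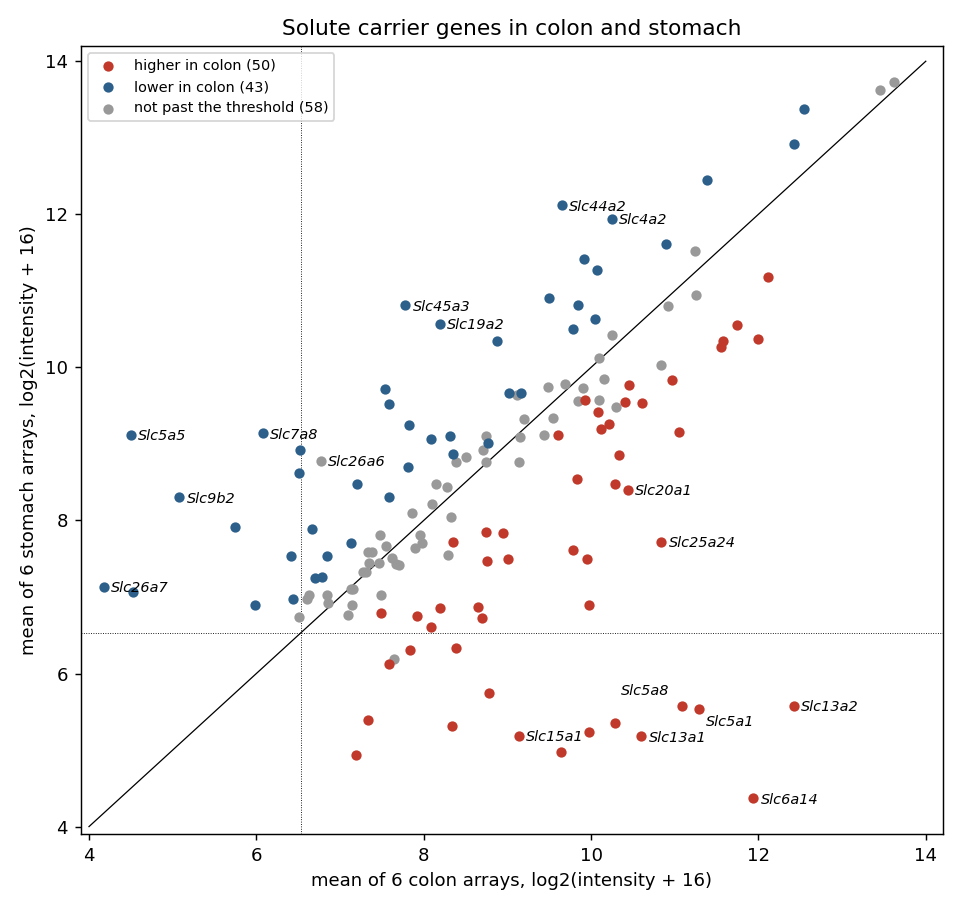
Mean log2(intensity + 16) of each of the 151 members over the 6 colon arrays (horizontal axis) and the 6 stomach arrays (vertical axis). Red points are the 50 members higher in colon, blue points the 43 lower in colon and grey points the 58 not past the threshold; the diagonal marks equal levels and the dotted lines the level of 6.53 below which a mean counts as dim. Slc13a2, Slc6a14, Slc5a1 and Slc5a8 lie at the lower right with dim stomach means, and Slc5a5 at the left with a dim colon mean.

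Promoter sequences are shown for 4 members, chosen after the matches were seen: Slc13a2, with the largest bound toward colon, Slc10a2 and Slc3a1, also higher in colon, each with a match found in no other member promoter, and Slc5a5, which was lower. They are the 250 bases before the annotated start, 5′ to 3′ on the gene's strand, from RefSeq on GRCm38.p6. Capitals mark a match, on either strand, to letters typical of sites for HNF4 (CAAAGTCCA), HNF1 (GTTAATNAT), CDX factors (CATAAA), SPDEF (CCGGAT) or to a TATA box (TATAAA); the TATA box letters in the Slc3a1 promoter overlap each other.
Slc13a2, chr11:78422235-78422484, minus strand: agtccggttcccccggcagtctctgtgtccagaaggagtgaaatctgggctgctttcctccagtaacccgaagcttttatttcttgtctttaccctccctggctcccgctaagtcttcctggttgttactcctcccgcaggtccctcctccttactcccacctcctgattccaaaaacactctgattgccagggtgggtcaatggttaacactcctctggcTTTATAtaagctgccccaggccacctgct
Slc10a2, chr8:5105288-5105537, minus strand: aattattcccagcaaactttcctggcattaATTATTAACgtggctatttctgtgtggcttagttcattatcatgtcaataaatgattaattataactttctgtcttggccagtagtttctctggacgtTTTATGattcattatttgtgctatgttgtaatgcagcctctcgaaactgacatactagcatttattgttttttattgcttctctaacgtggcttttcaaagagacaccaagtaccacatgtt
Slc3a1, chr17:85028097-85028346, plus strand: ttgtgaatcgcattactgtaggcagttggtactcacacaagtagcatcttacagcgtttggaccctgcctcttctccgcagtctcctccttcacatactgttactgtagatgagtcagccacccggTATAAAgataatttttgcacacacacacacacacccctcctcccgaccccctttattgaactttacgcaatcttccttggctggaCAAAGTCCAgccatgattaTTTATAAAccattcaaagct
Slc5a5, chr8:70892758-70893007, minus strand: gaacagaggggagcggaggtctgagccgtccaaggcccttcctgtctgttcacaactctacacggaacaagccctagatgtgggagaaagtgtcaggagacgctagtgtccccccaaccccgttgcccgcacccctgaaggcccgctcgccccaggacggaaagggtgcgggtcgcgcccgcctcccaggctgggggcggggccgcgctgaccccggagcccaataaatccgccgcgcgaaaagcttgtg

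The Slc13a2 promoter held TATA box letters at -29 to -24 from the start. The Slc10a2 promoter held the HNF1 letters at -220 to -212 and the CDX letters at -122 to -117. In the Slc3a1 promoter the HNF4 letters lay at -39 to -31, with TATA box letters at -124 to -119, -20 to -15 and -18 to -13. No letters of the 5 motifs were in the Slc5a5 window. The table held 161 promoters of this length for 116 members, in which the HNF4 letters occurred in 1 (Slc3a1) and the HNF1 letters in 1 (Slc10a2); the shares were 0.621% each, against 0.384% and 0.737% of all 32851 promoters. CDX letters were in 4.35% of member promoters and 10.8% of all promoters, SPDEF letters in 7.45% and 4.94%, and TATA box letters in 4.35% and 12.4%. Among promoters of members higher in colon the share with SPDEF letters was 3.7%, against 6.82% for those lower in colon and 11.1% for those not called. These matches are a description of the windows, with letters chosen when the members were already known.

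The 5 members furthest toward colon by this bound were Slc13a2, Slc6a14, Slc5a1, Slc5a8 and Slc13a1, which carry different substrates. Slc13a2, which couples sodium to citrate and succinate, read 11.98, 12.39 and 12.86 in colon (lowest, median and highest of 6 arrays) and 5.11, 5.36 and 6.60 in stomach. Every colon array was far above every stomach array, and since the stomach mean was dim the difference is given as at least 59.3-fold (adjusted p = 3.3e-08). Its relative Slc13a1, a sodium-sulfate carrier, spread more widely, at 8.13, 10.60 and 13.15 in colon and 4.87, 5.21 and 5.43 in stomach, and was at least 16.8-fold higher in colon (adjusted p = 3.1e-05). Slc5a8, a sodium-coupled carrier of butyrate, lactate and other monocarboxylates, had every colon array far above every stomach array. It read 10.72, 11.03 and 11.65 in colon and 5.24, 5.61 and 5.81 in stomach, at least 23.5-fold higher in colon (adjusted p = 1.6e-09). Slc5a1, the sodium-glucose carrier SGLT1, read 10.51, 10.98 and 13.21 in colon and 4.76, 5.46 and 6.87 in stomach. The highest of those colon values was the library labelled colon WT 2, and the difference of 5.75 (SE 0.39), at least 27.0-fold, was 5.38 without it. Slc16a1 (MCT1), which moves short monocarboxylates with a proton, was the member of the monocarboxylate and fatty acid group that passed, 1 of 5. It was 2.27-fold higher in colon (adjusted p = 0.00059), with overlapping colon and stomach arrays. The overlap was the library labelled colon WT 2, at 10.75. The other colon arrays read 11.6 to 12.11 and the stomach arrays 10.43 to 10.8.

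The bile acid carriers Slc10a2 and Slc51a were higher in colon, by an amount that moved with single arrays. Slc10a2, the sodium-coupled bile acid uptake carrier known best from the ileum, read 10.78 and 4.26 in KO colon, 10.61 and 10.18 in HET colon, and 9.56 and 12.48 in WT colon. Its stomach arrays read 4.10 to 5.62, so that the second KO colon array fell within the stomach range while the other colon arrays were well above it. It was at least 8.65-fold higher in colon (adjusted p = 0.00334), at least 4.07-fold without colon KO 1 and at least 18.4-fold without colon KO 2, with the call kept without any 1 of the 12 arrays. Slc51a, a subunit of the basolateral bile acid and steroid exporter, showed the same 2 arrays at its ends. It read 10.75 and 5.72 in KO colon, 10.15 and 10.15 in HET colon, and 9.91 and 13.16 in WT colon, against 4.95 to 5.65 in stomach, and was at least 10.9-fold higher in colon (adjusted p = 0.00118), 6.08-fold without colon KO 1 and 19.5-fold without colon KO 2. Of the 11 members in the bile acid, organic anion and cation group, 8 were higher in colon, 1 was lower and 2 did not pass, with a median difference of 0.93. Slc22a5, the carnitine carrier OCTN2, was 1.9-fold higher in colon (adjusted p = 0.00714). Slc22a17, described as a receptor for lipocalin, was the member that was lower, by at least 2.0-fold (adjusted p = 0.0232), a call lost in 5 of the fits without 1 array (colon HET 1, colon KO 2, stomach HET 2, stomach KO 2 or stomach WT 1; adjusted p = 0.0535 to 0.0642).

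Amino acid and peptide carriers did not all lie on the same side. Of 24 members, 10 were higher in colon, 8 lower and 6 not past the threshold. Slc6a14, a broad carrier of neutral and cationic amino acids, read 12.92 and 12.12 in KO colon, 12.85 and 12.71 in HET colon, and 12.63 and 8.43 in WT colon. All stomach arrays lay between 4.07 and 5.27, and the difference was 7.57 (SE 0.59, adjusted p = 7.8e-06), at least 42.6-fold. The low value was the library labelled colon WT 2, without which the bound was 69.2-fold; without colon WT 1 it was 26.2-fold. Slc3a1 encodes rBAT, the heavy chain that pairs with the Slc7a9 light chain to take up cystine and dibasic amino acids. Slc3a1 read 9.05, 10.19 and 11.86 in colon and 4.09, 5.38 and 6.03 in stomach, at least 13.5-fold higher in colon (adjusted p = 1e-05). Its 11.86 was the library labelled colon WT 2, and the other colon arrays read 9.05 to 10.57. Slc7a9 was at least 3.51-fold higher (adjusted p = 0.00714), at least 1.93-fold without that library and at least 6.39-fold without colon WT 1. The other heavy chain, Slc3a2 (4F2hc or CD98), was lower in colon, at 9.44, 9.62 and 11.25 against 11.27, 11.38 and 11.61 in stomach (2.82-fold, adjusted p = 0.00104). Its 11.25 was the library labelled colon WT 2, and the other colon arrays read 9.44 to 10.07. The Slc3a2 light chain partners Slc7a5 and Slc7a8, both exchangers of large neutral amino acids, were also lower in colon. The bounds were at least 4.25-fold and at least 6.11-fold (adjusted p = 0.00026 and 3e-05). Slc7a8 read 5.58, 5.77 and 7.85 in colon and 8.95, 9.06 and 9.40 in stomach. Slc7a6 and Slc7a7, further partners of Slc3a2, went opposite ways, with differences of -0.57 and 1.98 (adjusted p = 0.00558 and 0.00518).

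The proton-coupled peptide carriers Slc15a1 (PepT1) and Slc15a2 (PepT2) were both higher in colon. Slc15a1 read 8.03, 9.0 and 11.24 in colon and 4.98, 5.20 and 5.33 in stomach, at least 6.1-fold higher (adjusted p = 3.9e-05). Its 11.24 was the library labelled colon WT 2, and the other colon arrays read 8.03 to 9.42. Slc15a2 was 2.79-fold higher by its chosen probe set (adjusted p = 0.00028), while its second probe set differed by -0.04 (adjusted p = 0.924). Slc1a1, a glutamate and aspartate carrier, was at least 4.76-fold higher in colon, and Slc1a5, a glutamine and neutral amino acid exchanger, was 3.44-fold higher (adjusted p = 0.00024 and 1.5e-05). Slc1a1 read 10.85 on the library labelled colon WT 2 and 7.79 to 9.62 on the other colon arrays. Slc6a9, a glycine carrier, read 7.4, 7.82 and 8.20 in colon and 9.05, 9.26 and 9.41 in stomach, 2.69-fold lower in colon (adjusted p = 1.8e-05). Over all members, 39 of the called ones had another tested probe set, and in 36 every other one had the same sign; the exceptions were Slc15a2, Slc25a37 and Slc38a10.

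**Figure D2:**
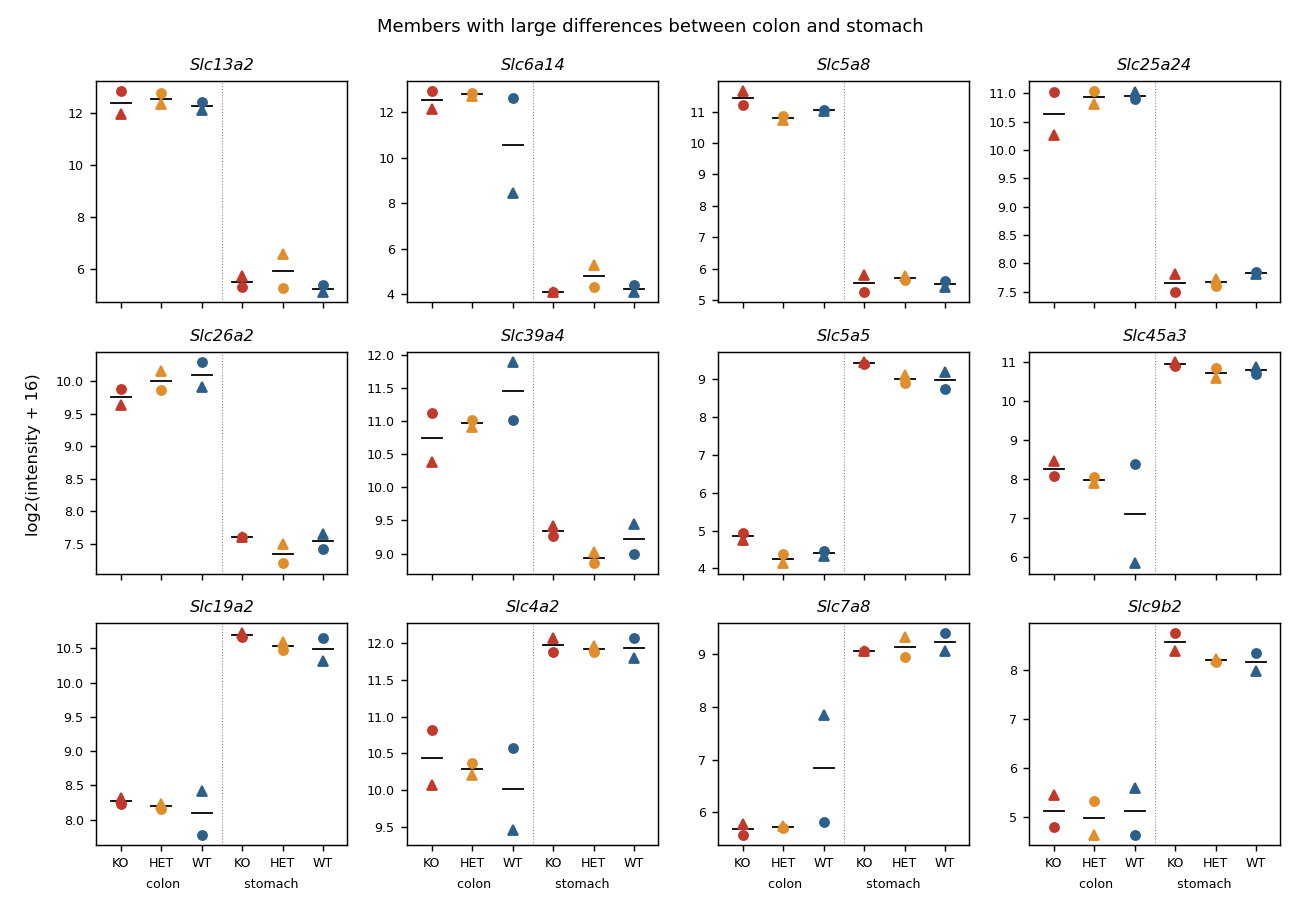
Level, log2(intensity + 16), of 12 members on each array, by genotype (KO, HET, WT) in colon and then stomach; circles are array 1 and triangles array 2 of a group, bars are group means, and each panel has its own scale. Slc13a2, Slc6a14, Slc5a8, Slc25a24, Slc26a2 and Slc39a4 were higher on every colon array, the other 6 lower on every colon array, and the WT triangle in colon is the low value of Slc6a14 and Slc45a3 and the high value of Slc7a8.

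Carriers lower in colon included several with known gastric roles. Slc5a5, the sodium-iodide symporter, by which the stomach as well as the thyroid takes up iodide, read 4.13, 4.41 and 4.94 in colon and 8.74, 9.14 and 9.44 in stomach. It was at least 6.03-fold lower in colon (difference -4.62, SE 0.13, adjusted p = 7.9e-09). Slc26a7 and Slc4a2, chloride and bicarbonate exchangers of the parietal cell, were lower by at least 1.52-fold and by 3.22-fold (adjusted p = 3.6e-06 and 0.0001). Slc26a7 was near the bottom of the scale in colon, at 4.10, 4.16 and 4.29 against 6.71, 7.26 and 7.47 in stomach, whereas Slc4a2 was well measured in both, at 9.46, 10.29 and 10.82 in colon and 11.79, 11.92 and 12.07 in stomach. Slc9b2, a sodium/proton exchanger, was at least 3.42-fold lower, and Slc12a7, the potassium-chloride cotransporter KCC4, was 2.67-fold lower (adjusted p = 3.5e-06 and 9.2e-06). The parietal cell markers, 5.84 to 6.79 in colon and 10.87 to 11.33 in stomach as a mean over 9 genes, moved with these members. Aqp4, which is in that list, did not, with means of 11.46 in colon and 11.14 in stomach. Its difference was 0.32, and 1.13 without the library labelled colon WT 2. The part of the parietal cell markers in the differences was not tested. Slc12a2 (NKCC1), which loads chloride for secretion, differed by -0.49 (SE 0.17, adjusted p = 0.0396) and by -0.31 without the library labelled colon WT 2 (adjusted p = 0.0279). The call was lost without the intensity trend and in 9 of the 12 fits without 1 array, all but those without colon WT 1, colon WT 2 or stomach KO 1 (adjusted p = 0.056 to 0.11).

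Within the same ion group of 16 members, 7 were higher in colon, 6 lower and 3 not past the threshold. Slc26a2, a sulfate carrier needed for sulfation of glycans, read 9.63, 9.89 and 10.29 in colon and 7.20, 7.55 and 7.66 in stomach, 5.5-fold higher (adjusted p = 2.6e-07). Slc12a8, classed with the cation-chloride cotransporters, was 4.52-fold higher in colon (adjusted p = 8.5e-05). Slc4a4, the sodium-bicarbonate cotransporter NBCe1, was 2.15-fold higher, and the calcium carriers Slc8a1, which exchanges sodium for calcium, and Slc24a3, which also moves potassium, were higher by at least 3.62-fold and by 2.83-fold. The 2 scaffold genes differed in direction: Slc9a3r1 was 1.91-fold higher in colon (adjusted p = 0.00153) and Slc9a3r2 was 4.53-fold lower (adjusted p = 1.6e-05). Slc26a6, a chloride, oxalate and bicarbonate exchanger, did not pass. It read 5.72 and 5.66 in KO colon, 5.84 and 5.19 in HET colon, and 6.17 and 12.03 in WT colon, against 8.64 to 9.13 in stomach. The difference of -2.01 (adjusted p = 0.0625) became at least 4.74-fold lower in colon without the library labelled colon WT 2 (adjusted p = 2.7e-07), where the colon mean was dim.

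**Figure D3:**
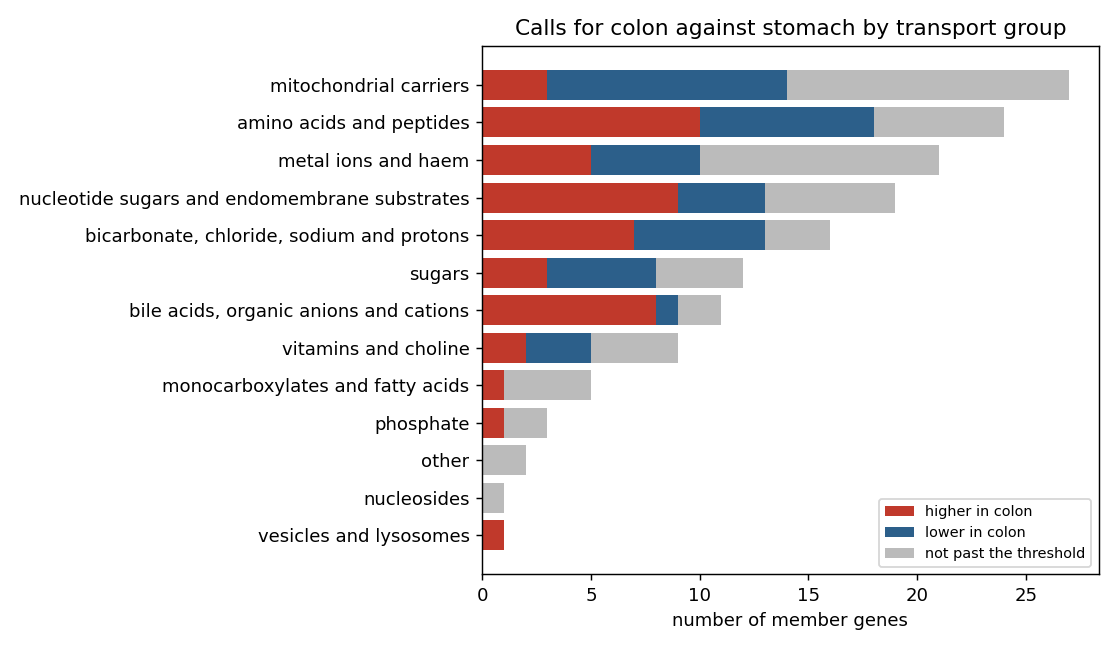
Number of members in each transport group (horizontal bars), split into those higher in colon (red), lower in colon (blue) and not past the threshold (grey). The bile acid and organic ion group has 8 red of 11, the mitochondrial carriers 11 blue of 27, and the metal ion group 11 grey of 21.

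Mitochondrial carriers, the Slc25 family, were the largest group. Of 27 members, 3 were higher in colon, 11 lower and 13 not past the threshold, with a median difference of -0.26. Slc25a24, which exchanges ATP-magnesium for phosphate across the inner membrane, read 10.26, 10.96 and 11.04 in colon and 7.49, 7.77 and 7.85 in stomach, 8.73-fold higher in colon (adjusted p = 1.5e-07). Its paralog Slc25a23, which carries the same substrates, was 2.41-fold lower in colon (adjusted p = 0.00264), at 6.68, 7.09 and 8.37 against 8.26, 8.48 and 8.63 in stomach. Slc25a20, which brings acylcarnitines in for fatty acid oxidation, was 2.35-fold higher, with colon arrays between 11.45 and 11.83 and stomach arrays between 9.99 and 10.54 (adjusted p = 9.2e-06). Slc25a4, the ADP/ATP exchanger typical of muscle and heart, read 11.18, 11.43 and 11.54 in colon and 12.30, 12.44 and 12.63 in stomach, 2.09-fold lower in colon (adjusted p = 2.3e-06). The ubiquitous ADP/ATP exchanger Slc25a5 differed by -0.10 (adjusted p = 0.0964) and the phosphate carrier Slc25a3 by -0.16 (adjusted p = 0.119). They differed by -0.13 and -0.24, in that order, without the library labelled colon WT 2. Over all arrays the other 3 tested Slc25a5 probe sets differed by -0.28 to -0.12 (smallest limma adjusted p = 0.00415). Smooth muscle markers (5 of 7 measured) stood at 11.21 to 12.80 in colon and 11.61 to 11.94 in stomach. Slc25a39, known for mitochondrial glutathione, differed by -0.83 (SE 0.06, adjusted p = 3.2e-06), and Slc25a30 was 2.34-fold lower in colon (adjusted p = 0.00018).

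For metals, 5 of 21 members were higher in colon, 5 lower and 11 not past the threshold. Slc39a8, which takes up zinc and manganese, read 8.51, 10.23 and 10.51 in colon and 6.27, 6.89 and 7.47 in stomach, 8.4-fold higher in colon (adjusted p = 4.6e-05). Slc39a4, the zinc importer mutated in human acrodermatitis enteropathica, read 10.38, 11.02 and 11.89 in colon and 8.85, 9.15 and 9.44 in stomach, 3.71-fold higher in colon (adjusted p = 3e-05). The zinc exporters Slc30a1 and Slc30a4 were higher in colon too, by at least 2.48-fold and by 2.45-fold (adjusted p = 0.0008 and 1e-05). Slc40a1, the iron exporter ferroportin, was 2.45-fold higher (adjusted p = 0.0103). The library labelled colon WT 2, at 7.97, lay below the stomach range of 8.38 to 8.88. In the fit of arrays noted MAS5 alone, over HET and WT, that library is the only WT colon array. The Slc40a1 difference there was 0.35 and the call was lost. Slc39a11, a zinc carrier, was 2.3-fold lower in colon (adjusted p = 0.0019). Slc30a9 and Slc39a13, of the same zinc families, were lower by less, with differences of -0.51 and -0.55 (adjusted p = 0.00179 and 0.0336), and the Slc39a13 call was lost without the library labelled colon WT 2 (-0.42, adjusted p = 0.06). The other 9 members of the Slc30 and Slc39 families did not pass over all arrays, with differences between -0.37 (Slc39a14) and 0.26 (Slc39a6). Some of these were larger without the library labelled colon WT 2. Slc39a14 then differed by -0.6, Slc39a6 by 0.4 and Slc39a1 by 0.33 in place of 0.21.

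Carriers of nucleotide sugars, which feed glycosylation in the Golgi apparatus, and of other substrates of inner membranes formed a group of 19, with 9 higher in colon, 4 lower and 6 not past the threshold (median difference 0.49). Slc35a1, which supplies CMP-sialic acid, read 10.87 and 11.27 in KO colon, 11.44 and 11.42 in HET colon, and 11.51 and 9.30 in WT colon, against 9.65 to 10.05 in stomach. The fit put it 2.2-fold higher in colon (adjusted p = 0.0139), with a difference of 1.5 in place of 1.13 when the library labelled colon WT 2 was left out. Slc35a2 (UDP-galactose) and Slc35a3 (UDP-N-acetylglucosamine) were 1.86-fold and 1.58-fold higher (adjusted p = 0.00164 and 0.00094). Slc37a4, the glucose-6-phosphate carrier of the endoplasmic reticulum, was 2.43-fold higher, and its relative Slc37a1 was 3.51-fold higher (adjusted p = 0.00047 and 3.5e-05). Slc35d1 was 2.78-fold higher in colon (adjusted p = 0.0135). The call was lost on the arrays noted MAS5 alone (difference 1.2), where the library labelled colon WT 2 is the only WT colon array. Slc33a1, an acetyl-CoA carrier, was 1.65-fold lower (adjusted p = 0.0019). Goblet cell markers, at 11.89 to 13.30 in colon and 7.91 to 8.83 in stomach, were higher in colon, as were 9 of these 19 members. The part of the goblet cell markers was not tested.

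Sugar carriers by family number, a group that also holds Slc5a5 and Slc5a8, counted 12, of which 3 were higher in colon, 5 lower and 4 not past the threshold. Slc45a3, described as a proton-coupled sucrose carrier, read 5.84, 8.05 and 8.45 in colon and 10.58, 10.85 and 10.99 in stomach, 8.17-fold lower in colon (adjusted p = 0.00011). Slc2a4, the insulin-responsive glucose carrier GLUT4, was 3.79-fold lower, with colon at 7.03 to 8.07 and stomach at 9.36 to 9.79 (adjusted p = 1.6e-05). Slc2a10 and Slc2a8, further facilitative carriers, were lower by at least 5.25-fold and by 1.62-fold (adjusted p = 0.00029 and 0.00197). Slc5a9, a sodium-coupled mannose and fructose carrier, was at least 1.75-fold higher in colon (adjusted p = 6.2e-05). Slc2a1, the glucose carrier GLUT1, did not pass over all arrays (0.80, adjusted p = 0.104) and differed by 1.23 without the library labelled colon WT 2 (adjusted p = 0.00014). Slc2a5, the fructose carrier, differed by 0.29 (adjusted p = 0.666) and by -0.20 without that library.

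Vitamin and choline carriers numbered 9, with 2 higher in colon, 3 lower and 4 not past the threshold. Slc44a4, which takes up thiamine pyrophosphate in human colon, read 11.82, 12.05 and 12.12 in colon and 10.18, 10.38 and 10.54 in stomach, 3.08-fold higher in colon (adjusted p = 7.8e-07). The thiamine carrier Slc19a2 was on the other side, at 7.78, 8.22 and 8.42 in colon and 10.32, 10.62 and 10.72 in stomach, 5.22-fold lower in colon (adjusted p = 4.5e-07). Slc44a2, a choline carrier, read 8.89, 9.70 and 10.33 in colon and 11.98, 12.07 and 12.43 in stomach, 5.54-fold lower in colon (adjusted p = 2.3e-05), and Slc44a3 was 2.78-fold lower (adjusted p = 0.00025). Slc46a3, a lysosomal carrier of the folate carrier family, was 2.53-fold higher in colon (difference 1.34, adjusted p = 0.0474), and the difference was 0.80 without the library labelled colon WT 2. The call was lost with no filter, with no trend, with an offset of 64 and in 9 of the 12 fits without 1 array, all but those without colon KO 2, colon WT 1 or colon WT 2 (adjusted p = 0.056 to 0.113). In the phosphate group of 3, Slc20a1 (PiT-1) was 4.1-fold higher in colon, with colon at 9.11, 10.64 and 10.91 and stomach at 7.98, 8.54 and 8.66 (adjusted p = 7.6e-05). Slc17a9, the vesicular nucleotide carrier, was at least 2.07-fold higher (adjusted p = 0.0114). The nucleoside carrier Slc29a1 differed by 0.03 (SE 0.12, adjusted p = 0.862).

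Carriers work with pumps, channels and carbonic anhydrases, and a list of such partner genes was read in the same fit. Of 40 partners tested, 18 were higher and 15 lower in colon, against the 48.3% called among all genes. Those with the largest called differences were the gastric proton pump subunits Atp4b and Atp4a, lower in colon by at least 7.64 and 7.29 on the log2 scale, and Car1 (carbonic anhydrase) and Abcb1a (a drug efflux pump), higher by at least 6.11 and 5.94. Car1 read 6.65 on the library labelled colon WT 2, without which the bounds were 7.34 for Car1 and 5.67 for Abcb1a. From a list of 37 carriers commonly studied in the gut, 23 were members; 13 were higher in colon, 4 lower and 6 not past the threshold, where all genes gave 21.3% higher and 27.0% lower. Slc2a2, Slc4a1, Slc28a2 and Slc37a2 were on the array and were not kept by the level.

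Just inside lay Slc16a6, Slc25a26 and Slc25a29, whose second highest array read 7.0, 7.02 and 7.06. Just outside lay Slc6a4, Slc12a4 and Slc35e4, at 6.94, 6.96 and 6.99. Slc6a4, the serotonin carrier, read between 4.23 and 10.32 and was above 7 on 1 colon array.

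The library labelled colon WT 2 read 13 members at least 2 above, and 5 members at least 2 below, every other colon array; of the other arrays only colon KO 2 did so, with 3 members at least 2 below the rest. Several of the members it read high are carriers known from small intestine. Slc7a9, which exchanges cystine, read 13.12 there and 6.33 to 7.94 on the other colon arrays. Slc26a6 read 12.03 against 5.19 to 6.17. Slc6a20a, an imino acid carrier, read 12.15 against 6.33 to 6.76. Slc34a2, a sodium-phosphate carrier, read 11.79 against 6.15 to 7.36. For each of these 4 the value was also above every stomach array. Slc7a7 (11.55 against 7.94 to 8.32), Slc52a3, a riboflavin carrier (11.59 against 8.39 to 8.90), and Slc25a15, the mitochondrial ornithine carrier (11.53 against 8.54 to 8.93), were high to a like degree. The others were Slc51a, Slc13a1, Slc5a1, Slc46a3, Slc25a22 and Slc7a8.

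Members that the library labelled colon WT 2 read low were Slc6a14 (8.43 against 12.12 to 12.92), Slc2a1 (8.54 against 10.91 to 11.75), Slc8a1 (5.87 against 8.30 to 9.59), Slc17a9 (5.46 against 7.66 to 8.34) and Slc45a3 (5.84 against 7.90 to 8.45). Marker lists moved with these members. The 13 measured small intestine genes of 18 averaged 12.07 on this array and 6.44 to 7.44 on the other colon arrays, and the 10 measured absorptive colonocyte genes of 12 averaged 10.17 against 11.83 to 12.70. The part of those cells in the members' values was not tested. Between tissues, leaving this array out gave at least 12.1-fold for Slc13a1, 7.47-fold for Slc51a, 5.25-fold for Slc8a1 and 2.78-fold for Slc17a9 as bounds toward colon, and 2.71-fold for Slc7a7. Toward stomach, Slc45a3 gave 6.09-fold and Slc7a8 kept its bound of 6.11-fold. Each of these 7 stayed past the threshold (adjusted p = 2.6e-08 to 0.00124). Of the members it read apart that did not pass over all arrays, Slc34a2 (at least 1.27-fold) and Slc25a22 (1.32-fold) then passed as higher in colon and Slc25a15 (1.51-fold) as lower (adjusted p = 0.0221, 0.0329 and 0.00028), and Slc6a20a and Slc52a3 did not (adjusted p = 0.0523 and 0.13).

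On the array colon KO 2, Slc10a2 read 4.26 against 9.56 to 12.48 on the other colon arrays, Slc51a 5.72 against 9.91 to 13.16, and Slc13a1 8.13 against 10.32 to 13.15. All 3 are carriers of bile acids or sulfate. On this array 10 of 12 exocrine pancreas genes averaged 7.99, against 5.83 to 6.08 on the other colon arrays and 7.73 to 8.08 on the stomach arrays. There 5 of 7 adipose genes averaged 6.75, against 8.53 to 9.60 on the other colon arrays. The part of these genes was not tested either.

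**Figure D4:**
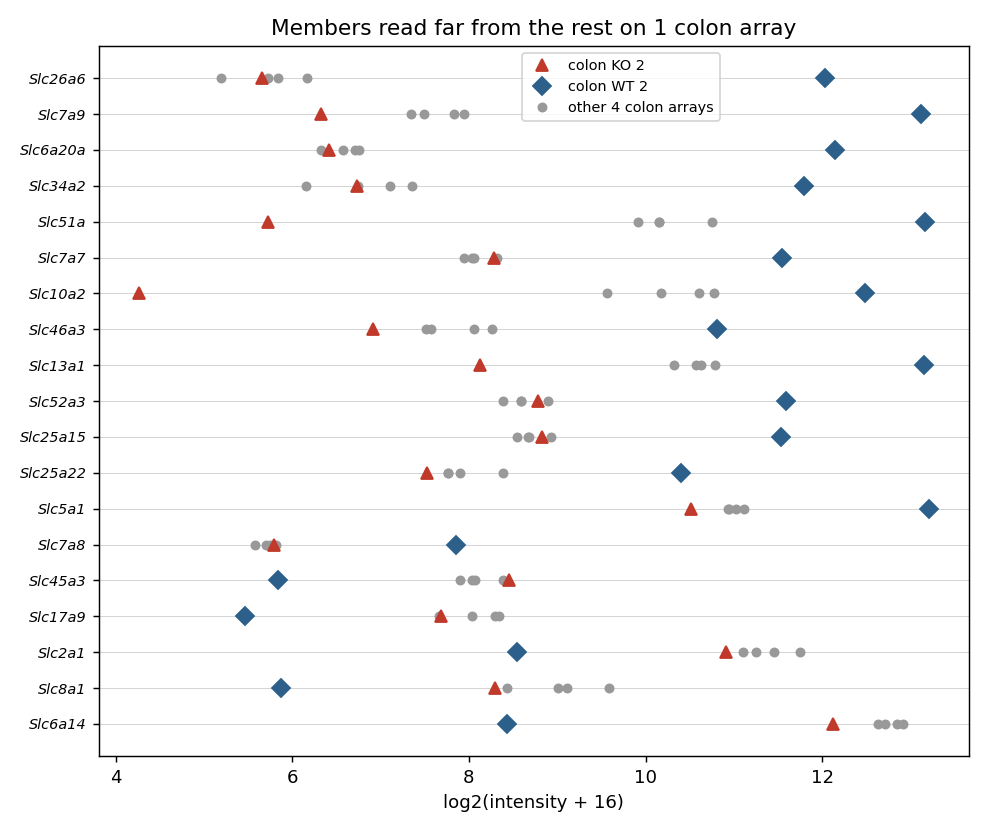
Level, log2(intensity + 16), of the 19 members that 1 colon array read at least 2 above or below the other 5. Red triangles are colon KO 2, blue diamonds colon WT 2 and grey points the other 4 colon arrays; for Slc26a6, Slc7a9, Slc6a20a and Slc34a2 the blue diamond lies between 11.79 and 13.12 and no other colon array reaches 8.

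Spdef genotype was compared within each tissue over 135 members tested in stomach and 143 in colon. In colon, KO against WT, 0 members passed the threshold, where 0.0505% of all genes tested did, and 19 members (13.3%) had an unadjusted p under 0.05, where 11.2% of all genes did. HET against WT in colon also gave 0 members (0.0253% of all genes called), with 17 (11.9%) under an unadjusted p of 0.05 where all genes gave 9.65%. For KO against HET in colon the counts were 0 (0.0253% of all genes) and 6, or 4.2% where all genes gave 4.15%. In stomach, KO against WT gave 0 members (0.0127% of all genes) and 2 under an unadjusted p of 0.05, where 3.68% of all genes lay under it. HET against WT there gave 0 (0.0% of all genes) and 4 under an unadjusted p of 0.05 (2.27% of all genes), and KO against HET 0 (0.0127% of all genes) and 2 (1.92% of all genes). The test of whether the genotype difference itself differed between colon and stomach called 0 members for KO against WT (0.0237% of all genes) and 0 for KO against HET (0.0% of all genes), with 3 and 2 under an unadjusted p of 0.05, where 4.61% and 2.17% of all genes were. With 2 arrays a group, a p that misses the threshold does not show that levels were alike.

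The members with the smallest p in colon are given by their arrays. Slc15a2, the peptide carrier PepT2, read 8.69 and 8.49 in KO colon, 8.54 and 8.04 in HET colon, and 7.19 and 7.6 in WT colon. It stood in the same order in stomach, at 6.74 and 7.30 in KO, 6.79 and 7.12 in HET, and 6.34 and 5.39 in WT. In each tissue every KO and HET array was above every WT array; KO minus WT was 1.20 in colon (SE 0.35, adjusted p = 0.32). In stomach the WT mean of 5.87 was dim, so KO minus WT was at least 0.49 and HET minus WT at least 0.42 (adjusted p = 0.975 and 1.0). The second Slc15a2 probe set also had positive KO minus WT differences in both tissues, from dim WT means. Averaged over both tissues, a comparison added after these values were seen, the adjusted p was 0.289 for KO minus WT and 0.696 for HET minus WT.

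Slc43a3, a purine nucleobase carrier in human cells, was set apart in HET. It read 7.52 and 7.26 in KO colon, 8.39 and 7.94 in HET colon, and 7.02 and 7.15 in WT colon, and 7.52 and 7.36 in KO stomach, 8.17 and 8.23 in HET stomach, and 7.39 and 7.30 in WT stomach. In both tissues the HET arrays were above all KO and WT arrays, with HET minus WT of 1.08 in colon (SE 0.20, adjusted p = 0.339) and 0.86 in stomach (SE 0.20, adjusted p = 1.0). Over both tissues HET minus WT was 0.97 (SE 0.14, adjusted p = 0.112) and KO minus HET was -0.77 (SE 0.14, adjusted p = 0.988). The HET-minus-WT and KO-minus-HET values share the HET arrays. None of the 3 genotype comparisons averaged over both tissues called a member (0 of 151 each, where 0.0592%, 0.0237% and 0.0237% of all genes were called for KO against WT, HET against WT and KO against HET).

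**Figure D5:**
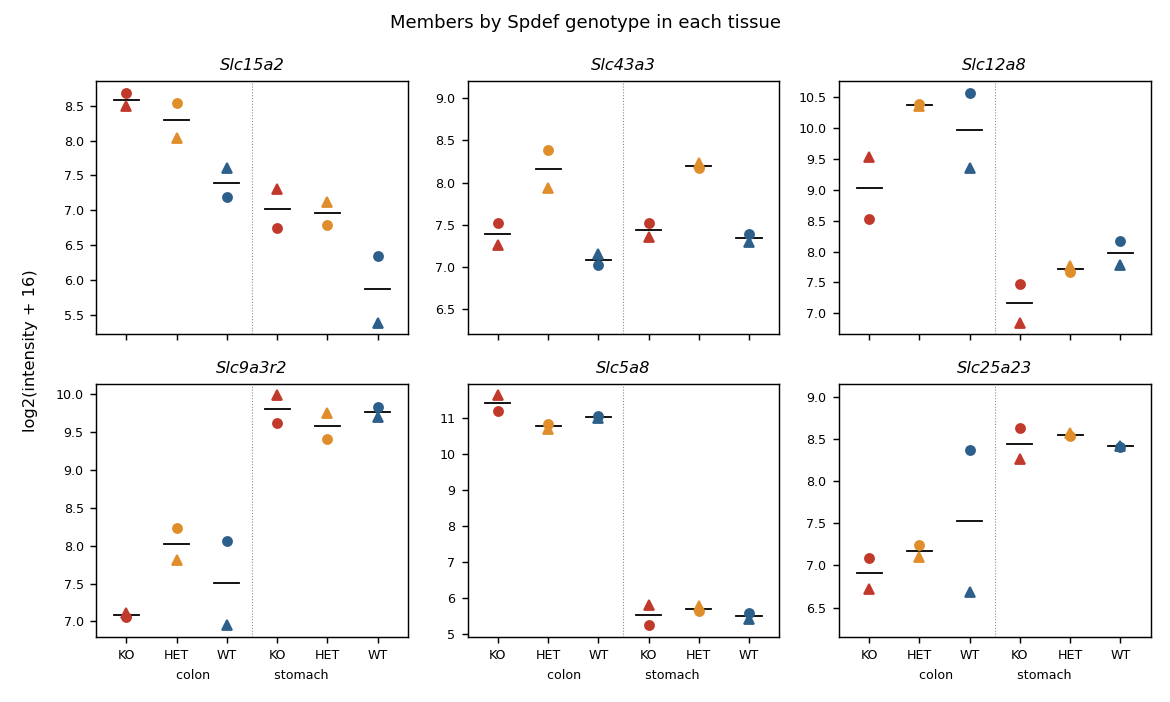
Level, log2(intensity + 16), of 6 members on each array by genotype (KO, HET, WT) in colon and then stomach; circles are array 1 and triangles array 2, bars are group means, and each panel has its own scale. Slc15a2 lies lowest in WT in both tissues and Slc43a3 highest in HET in both; the WT colon arrays of Slc9a3r2 and Slc25a23 lie far apart.

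Slc27a1, a fatty acid carrier, read 6.97 and 6.48 in KO colon, 7.4 and 7.35 in HET colon, and 7.86 and 7.57 in WT colon. KO was lowest and WT highest, with KO minus WT of -0.99 (SE 0.27, adjusted p = 0.32) and -1.14 without the library labelled colon WT 2. Slc12a8 read 8.53 and 9.53 in KO colon, 10.39 and 10.36 in HET colon, and 10.58 and 9.35 in WT colon. In stomach it read 7.47 and 6.85 in KO, 7.67 and 7.76 in HET, and 8.17 and 7.78 in WT, so that both KO arrays were below the HET and WT arrays there. KO minus HET was -1.34 in colon (SE 0.42, adjusted p = 0.998), and KO minus WT over both tissues was -0.87 (adjusted p = 0.488). Slc9a3r2, the scaffold gene, read 7.06 and 7.11 in KO colon, 8.24 and 7.81 in HET colon, and 8.06 and 6.95 in WT colon, so that HET lay above KO while the WT arrays spanned both. Slc5a8 read 11.22 and 11.65 in KO colon, 10.86 and 10.72 in HET colon, and 11.06 and 11.01 in WT colon. KO minus HET was 0.64 (SE 0.22, adjusted p = 0.998).

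For some other members with a small p in colon the difference shrank without the library labelled colon WT 2. For KO minus WT, Slc7a9 differed by -3.69 over all arrays and -1.1 without it, Slc25a22, a mitochondrial glutamate carrier, by -1.74 and -0.74, and Slc20a1 by 1.05 and 0.4. For HET minus WT, Slc1a1 differed by -1.85 over all arrays and -0.75 without it, Slc25a22 by -1.56 and -0.56, Slc25a46, a mitochondrial outer membrane protein, by 0.55 and 0.28, and the creatine carrier Slc6a8 by -0.84 and -0.49. With a dim mean in the mutant group, the bound over all arrays was -2.92 for Slc34a2 (KO minus WT) and -0.62 for Slc35c2 (HET minus WT). Their unbounded differences were -3.01 and -0.78 over all arrays. They were -0.67 and -0.34 without the library labelled colon WT 2. The values moved less for Slc25a44, a mitochondrial carrier of branched-chain amino acids, at -0.67 and -0.5, and for Slc25a4, at -0.32 and -0.3 (KO minus WT, adjusted p = 0.4 and 0.422 over all arrays). The same held in HET minus WT for Slc25a33, a mitochondrial pyrimidine nucleotide carrier, at 0.74 and 0.73, and Slc2a3, the glucose carrier GLUT3, at 0.87 and 0.95 (adjusted p = 0.451 and 0.475 over all arrays). None of these passed the threshold over all arrays. In KO minus HET, which uses no WT array, Slc7a4, a relative of the cationic amino acid carriers, differed by -0.52, Slc27a1 by -0.65, Slc35a3 by -0.4 and Slc25a33 by -0.46, each at an adjusted p of 0.998.

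Single arrays could make a call. The first WT colon array carries a note of RMA and the other colon arrays one of MAS5, and the part of that in these values was not tested. Without the library labelled colon WT 2, 1 member passed for KO against WT in colon, where 0.307% of all genes did: Slc25a23, with -1.46 (SE 0.24, adjusted p = 0.0424) in place of -0.62 over all arrays. It read 7.09 and 6.72 in KO colon, 7.24 and 7.10 in HET colon, and 8.37 and 6.68 in WT colon, so that the call set both KO arrays against the single first WT array. Without colon KO 1, Slc10a2 passed for KO against WT, at least 22.5-fold lower in KO (adjusted p = 0.0265), and for KO against HET, at least 14.5-fold lower in KO (adjusted p = 0.0466), with colon KO 2, dim at 4.26, as the lone KO array; 0.434% and 0.345% of all genes passed those comparisons. Without colon WT 1, where WT colon rested on the library labelled colon WT 2 alone, 43 members passed for KO against WT, where 12.5% of all genes did, and 44 for HET against WT, where 13.7% did. For the difference of KO against WT between tissues 27 passed, where 4.71% of all genes did.

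Both KO stomach arrays carry a note of RMA processing and the HET and WT stomach arrays one of MAS5. If the note holds, processing and KO genotype cannot be told apart there, while HET against WT is not touched. In stomach, after Slc15a2, the members with the smallest p for KO against WT were Slc9a8, a sodium/proton exchanger of the Golgi apparatus, with 0.64 (SE 0.28), and Slc1a5, with a bound of -0.53, both at an adjusted p of 0.999. Others at that adjusted p were Slc25a30 (0.56), Slc12a8 (-0.81), Slc38a5, a glutamine carrier (0.69), and Slc30a1 (a bound of -0.03, as KO was dim). Slc5a5 read 9.40 and 9.44 in KO stomach, 8.89 and 9.09 in HET stomach, and 8.74 and 9.19 in WT stomach, so that KO was highest, by 0.45 over WT (SE 0.23, adjusted p = 0.999). Slc10a6, a sulfated steroid carrier, read 7.01 and 6.89 in KO stomach, 7.51 and 7.33 in HET stomach, and 6.55 and 6.82 in WT stomach, with HET minus WT of 0.73 (SE 0.28, adjusted p = 1.0). The next smallest p for HET minus WT belonged to Slc25a28 (0.45), Slc37a3 (0.42), Slc35b2, which supplies the sulfate donor PAPS to the Golgi apparatus (-0.37), Slc12a9 (-0.42) and Slc25a20 (0.32), all at an adjusted p of 1.0. For KO minus HET they were Slc43a3 (-0.76), Slc1a5 (a bound of -0.55), Slc30a1 (a bound of -0.11), Slc12a9 (0.42), Slc5a5 (0.43), Slc25a28 (-0.32), Slc10a6 (-0.47) and the zinc importer Slc39a3 (-0.44), again at an adjusted p of 1.0. Squamous forestomach genes (9 of 10 measured) averaged 4.87 and 5.08 on the KO stomach arrays, 9.19 and 6.23 on the HET arrays and 7.29 and 7.89 on the WT arrays. These markers were thus lowest in KO stomach, and their part in the members' genotype values was not tested.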

How the data were processed

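Whole stomach and colon RNA was read on 12 arrays. For each probe set the authors deposited an intensity on a linear scale, with values of 0.16 to 32077. Per the submitters' processing notes, 9 arrays were made with MAS5 and 3 with RMA (stomach KO 1, stomach KO 2 and colon WT 1); no version is given in the sources used here. All 12 columns were linear, with array medians of 7.12 to 7.45 as log2(intensity + 16), whereas RMA output is usually log2, so whether the 3 arrays were made as noted is not known. Among stomach arrays, RMA is noted for both KO arrays and for no HET or WT array, so that, if the note holds, processing and KO genotype cannot be told apart there. Depth does not apply to arrays; the number of arrays limits the precision.

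Of 22716 probe sets, 90 controls were left out, 18003 had 1 gene, 287 several and 4336 none; 6 solute carrier probe sets with several genes were not used. Values were taken as log2(intensity + 16) and quantile normalized over the 12 arrays. A gene was tested where it reached the 40th percentile (6.53, an intensity of 76.5) in at least 2 arrays. A group mean below that level was raised to it, and the fold is then given as "at least". A model with 1 mean per group, 6 residual and 3.3 prior degrees of freedom, was fitted by limma (version 3.58.1, R version 4.3.3) using a trend over intensity. Benjamini-Hochberg adjustment covered all genes tested, at a threshold of 0.05. The fit was tested on simulated data. Tables and figures used Python 3.11.15, pandas 2.3.3, numpy 2.4.6 and matplotlib 3.10.9.

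Members, gene lists, transport groups (by family number) and promoter letters were chosen with earlier results of these data known. Members named are the 12 with the largest called difference between tissues in each direction whose arrays do not overlap, up to 3 more called per transport group, the 8 with the smallest p in each genotype comparison plus any called without colon WT 2, those colon WT 2 read at least 2 apart, a list of 37 gut carriers, and the 3 just inside and outside the level. Other members named, among them Slc3a2 partners, Slc25 carriers and zinc carriers, were chosen after their values were seen. Alternatives were the normalization, the offset, the filter, the trend, the probe set, the member level, the replicate number as a block, single tissues, subsets of arrays and leaving out each array. The genotype difference averaged over both tissues was added after seeing the data.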

Additional observations from a re-analysis of the deposited data

Results flagged for a closer look

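The members named for KO against WT or KO against HET, where tested in both tissues, were searched for opposite directions. For 2 of them the arrays of the 2 genotypes did not overlap in either tissue and differed in opposite directions. The share of all genes with this pattern was not counted. Slc20a1, a phosphate carrier, read 10.73 and 10.91 in KO colon and 10.42 and 9.11 in WT colon, and 8.05 and 8.53 in KO stomach and 8.66 and 8.55 in WT stomach. KO minus WT was 1.05 in colon and -0.32 in stomach; the test of the difference between the tissues gave 1.37 (SE 0.55, unadjusted p = 0.0347, limma adjusted p = 0.886). Slc25a28, a mitochondrial iron carrier, read 8.31 and 8.21 in KO colon and 7.91 and 8.14 in HET colon, and 9.14 and 8.85 in KO stomach and 9.30 and 9.32 in HET stomach. KO minus HET was 0.23 in colon and -0.32 in stomach, with a difference between the tissues of 0.55 (SE 0.25, unadjusted p = 0.0554, limma adjusted p = 1.0). Neither difference between the tissues passed the threshold. The Slc20a1 value in colon was 0.4 without the library labelled colon WT 2. Members outside that search could show the same pattern, as Slc48a1 did in KO against HET. Slc48a1 read 8.21 and 8.06 in KO colon and 8.61 and 8.46 in HET colon. In stomach it read 9.16 and 9.21 in KO and 8.84 and 8.97 in HET.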

How the results depend on the processing

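The count of 93 members called between colon and stomach lay between 89 and 98 under another offset, filter, normalization, trend, probe set or subset of arrays, and between 84 and 107 when 1 array was left out. Levels of 6.5 and 8 would keep 166 and 119 members, and the level of 7 on normalized values 150. Deviations of same-numbered samples correlated at -0.24 to 0.32 over all pairs of groups, with both ends between genotypes within a tissue. Between colon and stomach of the same genotype they correlated at 0.09 for KO, 0.03 for HET and 0.05 for WT. The replicate numbers thus gave little sign of pairing the tissues. With the replicate number as a block 95 members were called between tissues, and 0 in each genotype comparison. Genotype calls stayed at 0 in stomach in all alternatives, and in colon outside the settings that left out 1 array. There, KO against WT ranged from 0 to 43 members, HET against WT from 0 to 44, KO against HET from 0 to 1, and KO against WT between tissues from 0 to 27. The high ends came without colon WT 1, except KO against HET, where it came without colon KO 1. Of 2428 values recomputed for 113 named results, 2358 kept direction and call, 29 lost the call, 30 gained it and 11 changed sign. Between tissues there were 1408 values for 64 results, of which 1350 kept direction and call. The other values belonged to genotype results, which had no call over all arrays to lose. Lost calls fell on Slc12a2 (10), Slc46a3 (12), Slc22a17 (5), Slc35d1 and Slc40a1. The sign changes were as follows, and their cause was not tested. Between tissues, leaving out 1 array gave -0.6 (colon WT 2) to 0.35 (colon WT 1) for Slc25a15, and -0.17 to 0.9 for Slc52a3, -0.46 to 1.4 for Slc6a20a and -0.2 to 0.78 for Slc2a5 (low ends without colon WT 2, high ends without colon WT 1); Slc2a5 gave -0.08 without colon KO 1. On arrays noted MAS5 alone, where colon WT 2 is the only WT colon array, Slc25a15 gave 0.72 and Slc2a1 -0.12. That fit compared the tissues over HET and WT. On HET and KO arrays alone Slc52a3, Slc6a20a and Slc2a5 gave -0.11, -0.49 and -0.02. For KO against WT in colon, Slc25a23 ranged from -1.46 without colon WT 2 to 0.23 without colon WT 1. Array number, not depth, limits these values, and where a group is left with 1 array that array is assumed to vary like the other groups.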
